A study of Mus musculus with 8 samples.

Results

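6694c2 is a mouse pancreatic ductal adenocarcinoma cell line, 1 of 4 such lines in the series, and 2 of the 8 libraries belong to it. Its identity was read from the genes that set both of its libraries apart from all 6 libraries of 2838c3, 6499c4 and 6419c5. Each line was grown as a culture in which C1galt1c1 was knocked out (KO) and as a wild-type (WT) culture, with 1 library of polyadenylated RNA per culture and the same growth medium throughout. C1galt1c1 encodes Cosmc, the chaperone that T-synthase needs to extend O-glycans, and cells without it carry the short Tn antigen. The labels do not give the driver mutations of the lines or how many KO clones were used. As background, the lines are known as clonal derivatives of tumors from a genetically engineered mouse model of pancreatic cancer, and 6694c2 is known as a line whose tumors hold few T cells.

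A gene was called a gained marker of 6694c2 when the lower of its KO and WT values lay above the highest of the other 6 libraries and was at least 10 TPM. It was called a lost marker when the higher of the values of 6694c2 lay below the lowest of the other 6, and that lowest value was at least 10 TPM. TPM is a share of the library corrected for transcript length and scaled to the same total in every library. The rule found 538 gained and 994 lost markers, which is 5.83% and 10.8% of the 9225 genes with at least 10 TPM in at least 2 libraries. Applied to the other lines, it gave 2838c3 707 gained (7.66%) and 297 lost markers (3.22%). For 6499c4 the numbers were 753 gained (8.16%) and 722 lost (7.83%), and 6419c5 had 1306 gained (14.2%) and 610 lost (6.61%). With median-ratio scaling 6694c2 had 813 gained and 738 lost markers, so the excess of lost genes depends on the scaling. Marker genes are described with no test, since these libraries chose them.

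The libraries themselves differed in ways that touch the results. C1galt1c1 was at 10.9 TPM in the KO and 37.0 TPM in the WT library of 6694c2, and between 15.3 and 18.98 TPM in KO and between 37.9 and 54.2 TPM in WT libraries of the other lines. The share of TPM that fell on identifiers without a gene name was 12.5% for the KO culture of 6694c2 and 9.69% for that of 6419c5, and lay between 0.713% and 1.33% in the remaining libraries. Across 14268 genes, the log2(TPM + 1) values of the KO and WT libraries of 6694c2 correlated with r = 0.971, and the nearest library of another line was the 2838c3 WT library, with r = 0.948 to the WT library of 6694c2. These correlations are across genes, which are not independent replicates. The TPM keep no sequencing depth, so no counting error can be given.

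The labelled cell type was checked against its markers. The keratins Krt8 (4095 TPM in the KO and 7928 TPM in the WT library of 6694c2), Krt18 (4916 and 6324 TPM) and Krt19 (3750 and 5023 TPM) and the adherens junction protein Cdh1 (569 and 702 TPM) were abundant. Epcam was at 1.21 TPM in the KO and 3.12 TPM in the WT library of 6694c2, against 1.35 to 44.9 TPM in the other lines, and Esrp1 was at 0 and 0.0241 TPM. Of the markers of other cell types, 3 of 15 immune, 1 of 12 fibroblast and 3 of 11 endothelial genes reached 1 TPM in a library of 6694c2. The immune genes were Cd14 (255 and 286 TPM in the KO and WT libraries), Cd68 (8.31 and 14.2 TPM) and Fcgr3 (8.05 and 15.7 TPM), while the pan-leukocyte gene Ptprc was at 0 and 0.0124 TPM. Fcgr3, an Fc receptor, was called higher than in the other lines by 1.80 ± 0.26 (SE, limma adjusted p = 0.0132), although the 2838c3 KO and WT libraries, at 9.07 and 8.19 TPM, overlapped it. The fibroblast list was at 1 TPM only in Gsn (125 and 153 TPM), and the endothelial list in Egfl7, Esam and Flt1. Flt1, a VEGF receptor at 3.75 and 11.1 TPM in the KO and WT libraries of 6694c2, was called higher by 2.39 ± 0.53 (SE, limma adjusted p = 0.0433) against 0.0409 to 5.14 TPM in the others, with the endothelial gene Pecam1 at 0.0710 and 0.0853 TPM. The summed immune list was at 271.6 and 316.5 TPM in the KO and WT libraries of 6694c2, against 249.2 to 456.5 TPM in the others, and the part of these genes in the results was not tested.

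Trefoil factors are small secreted peptides of the stomach and gut lining that are packed with gel-forming mucins, and a gastric programme of this kind is a known feature of one class of pancreatic tumors. Glutathione S-transferases, carbonyl reductases and the cystine carrier form a detoxifying system that the transcription factor NRF2 controls. Cdkn2a and Cdkn2b encode inhibitors of the kinases that drive cells into S phase, and the locus that holds both is often lost in pancreatic cancer.

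Tff3 and Tff1, both trefoil genes, had the widest gaps of the gained markers. Tff1, a secreted gastric peptide (chromosome 17, 31380369 to 31384251, GRCm39), was at 15491 TPM in the KO and 9003 TPM in the WT library of 6694c2, against a lowest value of 28.6, a median of 108 and a highest value of 935 TPM in the other 6. Tff3, its intestinal relative, was at 94.8 and 72.2 TPM in the KO and WT libraries of 6694c2, against 0.794, 1.12 and 6.39 TPM. In both genes the highest of the other values came from the 2838c3 WT library, and the gap to it was 3.27 for Tff1 and 3.31 for Tff3 on the log2(TPM + 1) scale. Tff2, the third trefoil gene, was gained with a narrower gap of 0.61, at 228 and 346 TPM in the KO and WT libraries of 6694c2, against 1.32 to 149 TPM. Muc5ac, a gel-forming gastric mucin, was at 23.9 and 33.0 TPM in the KO and WT libraries of 6694c2, against at most 4.09 TPM elsewhere.

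**Figure D1:**
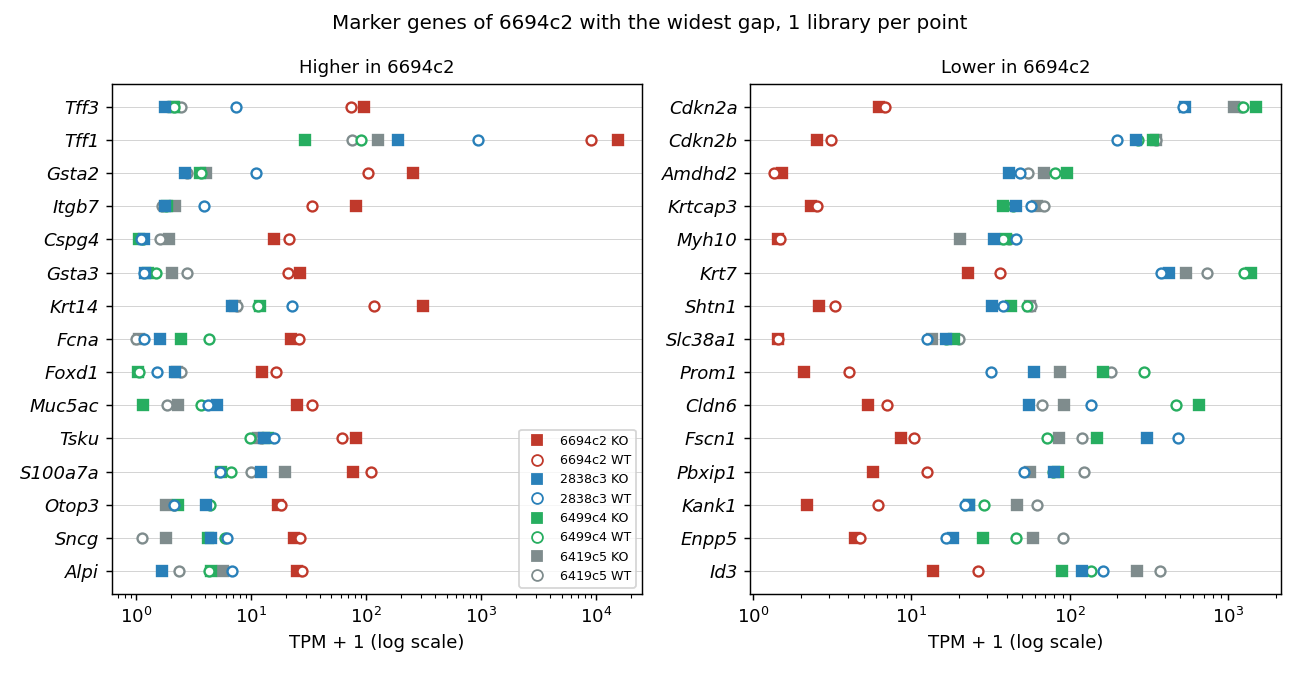
TPM + 1 on a log axis for the 15 gained (left) and 15 lost (right) marker genes with the widest gap, predicted genes skipped; squares are KO and open circles WT libraries, coloured by line. The red points of 6694c2 stand apart from the other 6 in every row, as the rule demands, and the widest gap is that of Cdkn2a, 6.27 on the log2 scale.

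Most gaps were far narrower than these. The median gap between 6694c2 and the nearest other library was 0.22 for gained and 0.16 for lost markers on the log2(TPM + 1) scale, and 40 gained and 29 lost genes had a gap of at least 2-fold. At the threshold itself, Borcs7 was just inside as a gained gene at 10.2 and 13.2 TPM in the KO and WT libraries of 6694c2, and Cfap418 just outside at 10.4 and 9.995 TPM. On the lost side Zfp865 was inside with a lowest value of 10.03 TPM in the other lines, and Proser1 outside with 9.97 TPM.

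The remaining genes at the top of the gained list belong to varied classes. Krt14, a keratin of basal epithelium, was at 310 TPM in the KO and 117 TPM in the WT library of 6694c2, against a lowest value of 5.79, a median of 8.55 and a highest value of 21.8 TPM. Itgb7, an integrin subunit best known on lymphocytes, was at 80.3 and 32.6 TPM in the KO and WT libraries of 6694c2, against 0.676, 0.841 and 2.89 TPM. Cspg4, a membrane proteoglycan known from pericytes and melanoma cells, was at 14.8 and 20.3 TPM in the KO and WT libraries of 6694c2, against at most 0.923 TPM. The transcription factor Foxd1, the soluble lectin Fcna, the secreted proteoglycan Tsku, the calcium-binding S100a7a, the proton channel Otop3, the synuclein Sncg and the intestinal phosphatase Alpi completed the list, with 11.4 to 110 TPM in 6694c2.

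On the lost side the cell cycle inhibitors came first. Cdkn2a (chromosome 4, 89192708 to 89212890) was at 5.21 TPM in the KO and 5.76 TPM in the WT library of 6694c2, against a lowest value of 520, a median of 1150 and a highest value of 1507 TPM. Its neighbour Cdkn2b (chromosome 4, 89223204 to 89229276) was at 1.52 and 2.12 TPM in the KO and WT libraries of 6694c2, against 196, 302 and 352 TPM. Both genes were high in all 3 other lines and near the bottom of the scale in both cultures of 6694c2. Mtap, the methylthioadenosine phosphorylase gene of the same locus, was also a lost marker, but at 62.3 and 86.4 TPM in the KO and WT libraries of 6694c2, against 113 to 246 TPM. DNA was not measured, so a deleted locus and a silent one cannot be told apart.

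Other lost genes differed in how low they were in 6694c2. Amdhd2, a deacetylase of amino sugar breakdown, was at 0.519 TPM in the KO and 0.361 TPM in the WT library of 6694c2, against a lowest value of 40.2, a median of 60.8 and a highest value of 95.2 TPM. Myh10, the heavy chain of non-muscle myosin IIB, was at 0.440 and 0.479 TPM in the KO and WT libraries of 6694c2, against 19.3, 37.7 and 44.9 TPM. The amino acid carrier Slc38a1, the shootin gene Shtn1, Krtcap3 and the stem cell surface protein Prom1 were also lost, with gaps of 3.11, 3.29, 3.90 and 2.99 on the log2(TPM + 1) scale. Fscn1, an actin-bundling protein, was at 7.58 and 9.42 TPM in the KO and WT libraries of 6694c2, against 70.9, 134 and 482 TPM. Id3, a dominant-negative helix-loop-helix factor and BMP target, was at 12.7 and 25.3 TPM, against 88.6, 148 and 370 TPM, and its relative Id1 was a lost marker too.

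A fit across all genes placed these markers against the rest. limma was fitted to the 14268 genes with at least 1 TPM in at least 2 libraries, with line and genotype as terms, and tested 6694c2 against the mean of the other 3 lines. At an adjusted p of 0.05 it called 1531 genes, 499 higher (3.50% of those tested) and 1032 lower (7.23%) in 6694c2. The median difference of all genes was -0.13 (log2), so differences below are given relative to it, while the tests use the values as they stand. With median-ratio or quantile scaling the lower genes were 55.7% and 55.2% of the calls, against 67.4% here. The spread in this test is that between the KO and WT cultures of a line, so its p-values do not measure spread between tumors. With 1 mean per line, 6694c2 against 3 lines, limma called 0 genes, and 306 higher and 404 lower genes had an unadjusted p under 0.05. The number of calls also rests on single libraries and lines, with 302 calls without the WT library of 6694c2, 225 without its KO library, 3576 without 2838c3, 485 without 6499c4 and 357 without 6419c5.

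The KO and WT libraries gave a separate look at the same line differences, since they share no culture. Of the 1860 genes highest in 6694c2 among the WT libraries, at 10 TPM or more, 776 were also highest among the KO libraries, a share of 41.7% against 19.4% of all genes at that level. Of the 2384 genes lowest among the WT libraries, 1545 were lowest among the KO libraries, a share of 64.8% against 37.7%. The difference between 6694c2 and the other lines correlated between the WT and the KO libraries with r = 0.643 across 14268 genes.

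Conjugation and antioxidant enzymes were the list with the highest median among those with at least 15 genes tested. Of 46 listed genes 40 were tested, 12 were gained markers and none was lost, and the median difference was 1.27 (log2) relative to all genes. limma called 15 of the 40 higher and 3 lower. Those counts include the markers, which the same libraries chose. Over all genes tested 3.77% were gained and 6.97% lost markers, and limma called 3.50% higher and 7.23% lower. Many tested genes lie below the 10 TPM that the marker rule asks for. Of the genes with at least 10 TPM in at least 2 libraries, 5.83% were gained and 10.8% lost markers. These are the shares to set beside the counts of each list below. Gsta2, an alpha-class glutathione S-transferase, was at 253 TPM in the KO and 104 TPM in the WT library of 6694c2, against a lowest value of 1.66, a median of 2.66 and a highest value of 10.0 TPM. Its relative Gsta3 was at 25.4 and 20.0 TPM in the KO and WT libraries of 6694c2, against 0.167, 0.386 and 1.78 TPM. Cbr3, a carbonyl reductase, was at 570 and 355 TPM in the KO and WT libraries of 6694c2, against 19.7, 55.6 and 99.2 TPM. Slc7a11, the cystine carrier, was at 252 and 66.8 TPM in the KO and WT libraries of 6694c2, against 8.02, 11.2 and 22.7 TPM.

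**Figure D2:**
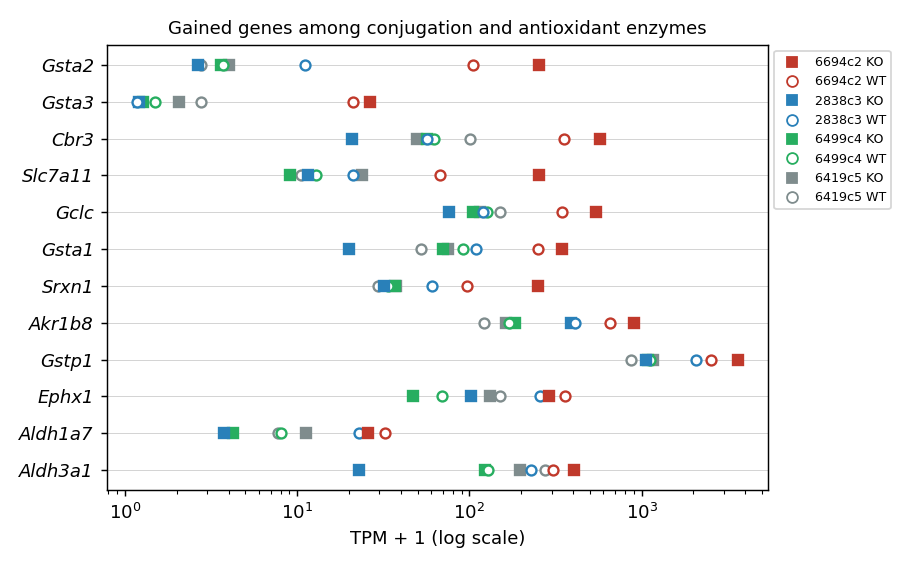
TPM + 1 on a log axis for the 12 gained genes of the conjugation and antioxidant list, 1 point per library; squares are KO and open circles WT libraries. Gsta2 and Gsta3 show the widest separation of 6694c2 (red), and in Aldh3a1 the 6694c2 WT library (306 TPM) lies close to the 6419c5 WT library (274 TPM).

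The other 8 gained members were Gsta1, Gstp1, Gclc, Srxn1, Akr1b8, Aldh3a1, Aldh1a7 and Ephx1. Gclc, the catalytic subunit of the first enzyme of glutathione synthesis, was at 544 and 345 TPM in the KO and WT libraries of 6694c2, against 74.7 to 150 TPM in the other lines. Nqo1, a quinone reductase and a usual readout of NRF2, was no marker, because its 120 TPM in the 6694c2 WT library lay below 148 TPM in the 2838c3 WT library. Sult1d1, a sulfotransferase, went the other way, at 1.04 and 1.60 TPM in the KO and WT libraries of 6694c2 against 2.55 to 108 TPM, a difference of -3.01 ± 0.35 (SE, limma adjusted p = 0.00494). The transcripts of NRF2 itself (Nfe2l2, 130 and 191 TPM in the KO and WT libraries of 6694c2) and of its inhibitor Keap1 (47.0 and 67.7 TPM) differed by 0.34 ± 0.21 and 0.03 ± 0.18 from the other lines (SE, limma adjusted p = 0.547 and 0.738). These regulators were looked up after the list had been seen. Without the 6694c2 WT library the median of the list was 1.56 with 9 genes called higher, and without its KO library 0.64 with 2 called higher. The number called higher was 6 without 6499c4 and 9 without 6419c5, and for Sult1d1 the limma adjusted p was 0.0715 without 6419c5.

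The upstream sequence of the glutathione S-transferases was searched for 1 spelling of the core of the antioxidant response element, the site at which NRF2 binds. The letters searched were TGACNNNGC on both strands of the 250 bases before each gene's start, from RefSeq on GRCm38.p6, and this was the only motif and window tried. Gsta3 and Gsta2 are shown because they lead the list, with the match in capitals.
Gsta3, chr1:21240335-21240584, plus strand: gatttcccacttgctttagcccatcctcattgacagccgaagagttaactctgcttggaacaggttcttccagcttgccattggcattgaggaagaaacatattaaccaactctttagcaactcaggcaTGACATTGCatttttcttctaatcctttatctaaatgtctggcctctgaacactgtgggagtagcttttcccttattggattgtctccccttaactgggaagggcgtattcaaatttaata
Gsta2, chr9:78347146-78347395, minus strand: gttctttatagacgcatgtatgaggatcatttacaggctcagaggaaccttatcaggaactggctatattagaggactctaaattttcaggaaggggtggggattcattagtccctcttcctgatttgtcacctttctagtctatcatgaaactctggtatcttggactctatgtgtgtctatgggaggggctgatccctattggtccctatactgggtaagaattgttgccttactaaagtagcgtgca
The match lay 121 bases before the start of Gsta3, and these letters are not in this window of Gsta2. Of the 10 gained genes of the list with a promoter sequence, 1 held a match (10.0%), against 14.0% of all tested genes with one. The windows of Gstp1 and Srxn1 hold tgagtcagc, which differs from the letters searched and was not counted. With 10 genes, 1 match and a single spelling, these shares cannot tell whether such sites are more common in the gained genes. Whether NRF2 acts on these genes was not tested.

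Of the 26 genes of the unfolded protein response, all tested, 9 were gained markers, with a list median of 0.71 (log2). Gained markers were 3.77% of all genes tested and 5.83% of those with at least 10 TPM in at least 2 libraries. The sum of the list was 9542 TPM in the KO and 5181 TPM in the WT library of 6694c2. The other lines had 3448 to 5915 TPM, the highest in the 2838c3 WT library. Sel1l, a component of the machinery that clears misfolded proteins from the endoplasmic reticulum, was at 97.7 TPM in the KO and 61.5 TPM in the WT library of 6694c2, against a lowest value of 24.2, a median of 32.7 and a highest value of 39.6 TPM. Edem1, a lectin of the same pathway, was at 57.0 and 48.7 TPM in the KO and WT libraries of 6694c2, against 25.0, 27.4 and 36.9 TPM. Of the 32 genes of the integrated stress response, the ATF4-led programme of amino acid supply, 4 were gained markers (Slc7a11, Slc3a2, Cebpb and Gpt2) and the median was 1.01. The sum of this list was 9936 TPM in the KO and 4533 TPM in the WT library of 6694c2. It was 5203 and 5416 TPM in those of 2838c3, 5290 TPM in the 6419c5 KO library and 2399 to 2839 TPM in the rest. The WT library of 6694c2 thus did not exceed 2838c3. limma called 3 genes higher in each of the 2 lists, and 1 lower in the first, counts that include markers. Over all genes tested it called 3.50% higher and 7.23% lower. Without the 6694c2 KO library the medians were 0.34 and 0.57 with 0 genes called higher in either and 1 of the second list called lower, and without the 2838c3 line 10 and 16 were called higher. Without 6499c4 or 6419c5, in turn, 0 genes of either list were called higher.

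**Figure D3:**
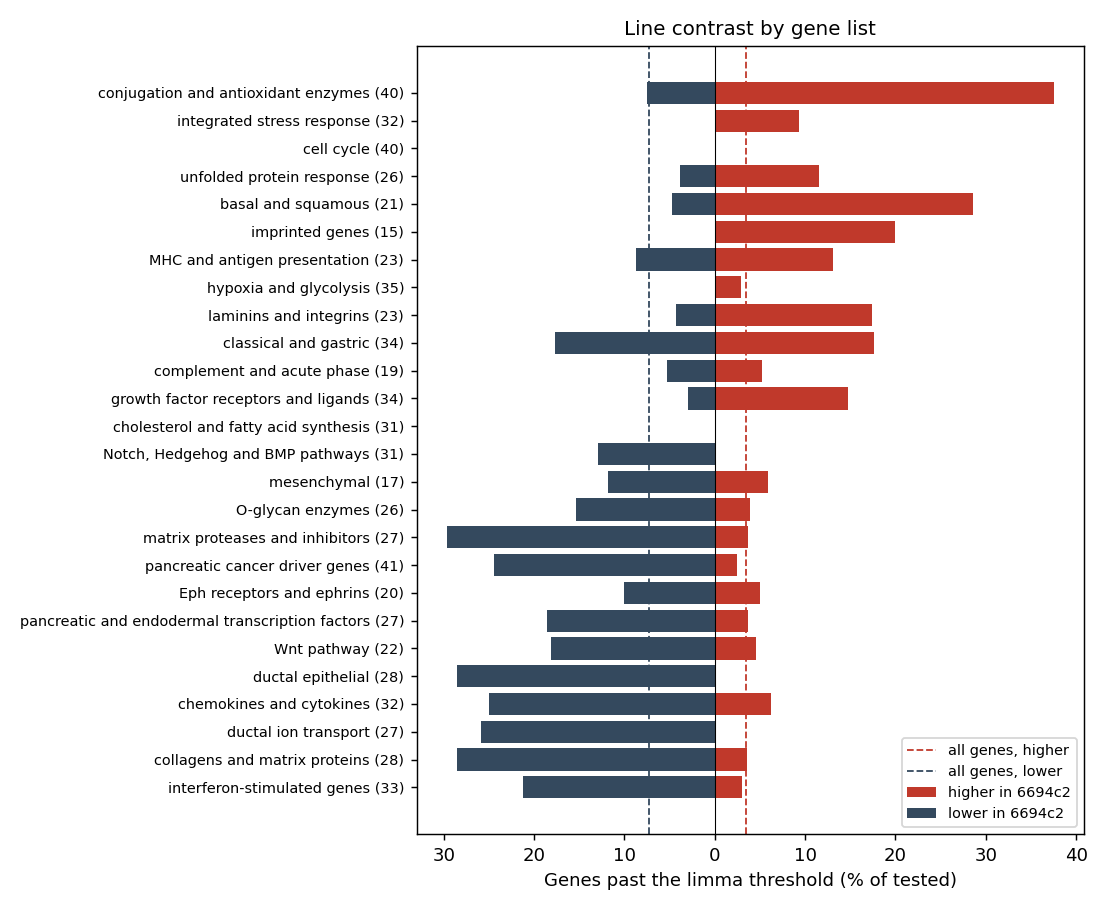
Share of tested genes past the limma threshold for each list with at least 15 genes tested (number in brackets), higher in 6694c2 to the right (red) and lower to the left (dark); dashed lines give the shares over all genes, 3.50% and 7.23%. Conjugation and antioxidant enzymes have the longest bar to the right, and the collagen, protease, ductal and interferon lists lie mainly to the left.

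Among ductal epithelial genes Krt8, Krt18, Krt19 and Cdh1 were abundant, while others, Krt7 and Prom1 above all, were lower than in the other lines. Of 28 ductal epithelial genes tested, 4 were lost markers and none was gained, and limma called 8 lower and 0 higher. Krt7, a ductal keratin, was at 21.6 TPM in the KO and 35.3 TPM in the WT library of 6694c2, against a lowest value of 374, a median of 640 and a highest value of 1397 TPM. Prom1 was at 1.11 and 3.03 TPM in the KO and WT libraries of 6694c2, against 31.0, 123 and 293 TPM. The junction genes Tjp3 and Jup were the other lost members, with narrow gaps of 0.34 and 0.10 on the log2(TPM + 1) scale. Cldn3, a tight junction claudin, was called lower by -3.37 ± 0.21 (SE, limma adjusted p = 0.000898), yet its 0.632 and 0.783 TPM in the KO and WT libraries of 6694c2 were as low as the 0.622 and 0.321 TPM of 2838c3. Sox17, an endodermal transcription factor, had the same form, with 0.241 and 0.334 TPM in the KO and WT libraries of 6694c2 and 0.476 and 0.271 TPM in those of 2838c3, against 48.3 to 127 TPM in the 2 remaining lines. Without 2838c3 13 ductal epithelial genes were called lower and 1 higher, and 5 or 6 were called lower with any other line or a library of 6694c2 left out.

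Muc1, the main membrane mucin of ductal cells and a carrier of O-glycans, was a lost marker at 96.1 TPM in the KO and 145 TPM in the WT library of 6694c2, against a lowest value of 324, a median of 646 and a highest value of 791 TPM. Among classical and gastric genes as a whole, 34 tested, limma called 6 higher and 6 lower, with a median of 0.09. The counts include 5 gained markers (the 3 trefoil genes, Muc5ac and Creb3l1) and 1 lost marker, Gata5, which the same libraries chose. Of the others Mal was called higher, and those called lower included the gastric claudin Cldn18 and the mucosal glycoprotein Dmbt1. Cldn18 was at 0.993 and 1.48 TPM in the KO and WT libraries of 6694c2, and its high values were those of 6499c4, 179 and 208 TPM. Basal and squamous genes, 21 tested, had 6 called higher and 1 lower, with Krt14 and Cav1 as gained markers. Without the 6694c2 KO library none of the basal genes was called higher, without its WT library 3 were, and without the 6419c5 and 6499c4 lines 3 and 1. The 6 lower calls of the gastric list were 1 without 6419c5, 2 without 6499c4, 1 without the 6694c2 WT library and 0 without its KO library.

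Of 41 pancreatic cancer driver genes 11 were lost markers and 1, Rb1, was gained. Over all genes tested 6.97% were lost and 3.77% gained markers, and limma called 7.23% lower. Of the genes with at least 10 TPM in at least 2 libraries, 10.8% were lost and 5.83% gained markers. After Cdkn2a and Cdkn2b the widest gaps of the lost genes were 0.60 for Ccnd2 and 0.52 for Ccnd3 on the log2(TPM + 1) scale. Beside Cdkn2a, Cdkn2b and Mtap the lost ones were Ccnd2, Ccnd3, Cdk4, Arid1a, Yap1 and the ERK pathway feedback genes Dusp6, Spry4 and Etv5. Ccnd2, a D-type cyclin, was at 73.5 TPM in the KO and 78.3 TPM in the WT library of 6694c2, against a lowest value of 119, a median of 150 and a highest value of 186 TPM. Trp53 and Smad4 were not markers, and limma gave them adjusted p of 0.657 and 0.206. limma called 10 of the 41 lower and 1 higher, and 2 to 4 lower when 6499c4, 6419c5 or a library of 6694c2 was left out. None of the 40 cell cycle genes tested was called, and their list median was 0.72. Without the 2838c3 line 14 of them were called higher, and the median KO effect of the list in 2838c3 was -2.58 (log2).

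Of 28 collagen and matrix genes tested, limma called 8 lower and 1 higher. Col4a1 and Col4a2, the chains of basement membrane collagen IV, and the matricellular gene Ccn1 were lost markers. Ccn1 was at 107 TPM in the KO and 203 TPM in the WT library of 6694c2, against a lowest value of 263, a median of 773 and a highest value of 1838 TPM. Sparc, a collagen-binding protein, was the gene called higher, by 2.00 ± 0.38 (SE, limma adjusted p = 0.0311), with values of 218 and 315 TPM in the KO and WT libraries of 6694c2 that lie within the 7.46 to 327 TPM of the other lines. Without the 6419c5 line or the 6694c2 KO library 0 of the list were called lower, without 6499c4 3 and without the 6694c2 WT library 2. The limma adjusted p of Sparc was 0.13 without the 6694c2 KO library, 0.191 without its WT library and 0.248 without 6499c4.

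Of 33 interferon-stimulated genes tested 7 were called lower and 1 higher, with Irf1 and Bst2 as lost markers and a median of -0.62. Ifih1, the cytosolic RNA sensor MDA5, was at 0.986 and 1.14 TPM in the KO and WT libraries of 6694c2, against a lowest value of 3.63, a median of 5.097 and a highest value of 11.8 TPM, a difference of -1.56 ± 0.23 (SE, limma adjusted p = 0.00907). Of 23 MHC and antigen presentation genes tested, limma called 3 higher and 2 lower, with a median of 0.27. The list held 1 gained marker, Nt5e, and 1 lost marker, B2m, and the 2 lower genes were B2m and Cd274. B2m, the light chain of MHC class I, was at 226 and 255 TPM in the KO and WT libraries of 6694c2, against 267, 519 and 655 TPM. Its gap was narrow, 0.07 on the log2(TPM + 1) scale. Cd274, which encodes PD-L1, was at 0.977 and 0.775 TPM in the KO and WT libraries of 6694c2, against 2.54, 8.08 and 25.1 TPM, a difference of -2.20 ± 0.29 (SE, limma adjusted p = 0.00705). Of 32 chemokine and cytokine genes tested, limma called 8 lower and 2 higher, with a median of -0.34. Il18 was called lower by -2.21 ± 0.18 (SE, limma adjusted p = 0.00159). Its 0.601 and 1.32 TPM in the KO and WT libraries of 6694c2 were close to the 0.456 and 1.33 TPM of 2838c3. Cxcl1, a neutrophil chemokine and 1 of the 2 called higher, was at 18.97 and 14.4 TPM in the KO and WT libraries of 6694c2. These values were close to the 26.2 and 18.0 TPM of 6419c5, and Cxcl1 was at most 0.259 TPM in the other lines. Without either library of 6694c2, in turn, 0 interferon-stimulated genes were called lower, without 6419c5 0 and without 6499c4 1, and without the 2838c3 line 23 were. With a library of 6694c2 left out the limma adjusted p was 0.0844 to 0.0954 for Ifih1 and 0.071 to 0.0731 for Cd274, and for Ifih1 it was 0.0521 without 6419c5.

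The markers were not spread evenly over the genome. Over all 14268 genes tested, gained markers made up 3.77% and lost markers 6.97%. On chromosome 12, 130 of 457 tested genes were gained markers (28.4%) and 3 were lost, and the median difference of the chromosome was 0.55 (log2) relative to all genes. On chromosome 10, 176 of 645 tested genes were lost markers (27.3%) and 3 were gained, with a median of -0.40. The medians were alike in the KO and WT libraries, 0.53 and 0.56 for chromosome 12 and -0.37 and -0.41 for chromosome 10. Chromosomes 13 and 14 had medians of 0.33 and 0.36, and chromosomes 17 and 5 of -0.23 and -0.20. Of the markers named above for the unfolded protein and ductal lists, Sel1l lies on chromosome 12 and Tjp3 on chromosome 10. Edem1, Krt7, Prom1 and Jup lie on neither. limma called 77 genes of chromosome 12 higher (16.8%) and 150 of chromosome 10 lower (23.3%), numbers that fell with all calls when a library of 6694c2, 6499c4 or 6419c5 was left out (to between 4 and 18, and between 12 and 30), while the medians stayed between 0.46 and 0.60 and between -0.51 and -0.33 over all left-out lines and libraries. The same median was taken for 2838c3, 6499c4 and 6419c5, each against the remaining lines, 6694c2 among them. In that order it was -0.16, -0.03 and -0.35 on chromosome 12 and -0.13, 0.18 and 0.33 on chromosome 10. On chromosome 13 it was 0.19, -0.15 and -0.30, and on chromosome 14 0.18, -0.19 and -0.36. The highest median of 6419c5 was 0.45, on chromosome 16. All of these are RNA values, and copy number was not measured.

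**Figure D4:**
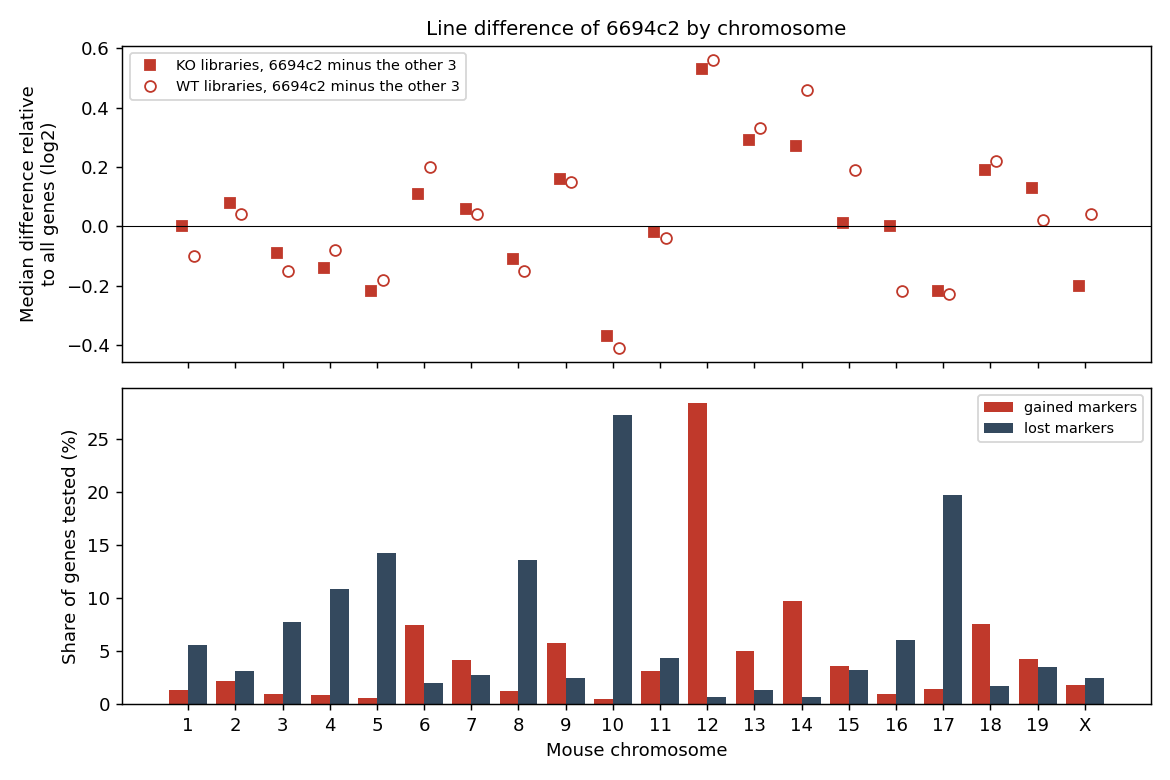
Upper panel: median difference between 6694c2 and the other lines per chromosome, in log2 relative to all genes, for the KO (squares) and the WT (circles) libraries; lower panel: gained and lost markers as a percentage of the genes tested on each chromosome. Chromosome 12 stands highest in both genotypes with 28.4% gained markers, and chromosome 10 lowest with 27.3% lost markers.

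Over windows of 15 neighbouring tested genes, the highest median was 1.28 on chromosome 15 from 74.0 to 75.1 Mb. This stretch holds the Ly6 family of surface proteins, and only 1 of its tested genes was a gained marker. The next windows were on chromosome 12, with 0.96 from 30.6 to 33.0 Mb and 0.93 from 65.1 to 69.6 Mb, and held 8 and 9 gained markers. The lowest were -0.85 on chromosome 3 from 5.3 to 10.1 Mb, with no lost marker, and -0.82 and -0.80 on chromosome 10 from 80.5 to 80.9 and from 75.0 to 75.8 Mb, with 10 and 6 lost markers.

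Loss of C1galt1c1 was then compared between the lines. No gene passed the limma test of the KO effect in 6694c2 against that in the other 3 lines, where 202 higher and 464 lower genes had an unadjusted p under 0.05. With 1 library per genotype and line, 426 genes (2.99% of those tested) were at least 2-fold higher and 493 (3.46%) at least 2-fold lower in the KO than in the WT library of 6694c2, relative to the median of all genes. The integrated stress response genes had a median KO effect of 1.46 (log2) in 6694c2, -0.18 in 2838c3, 0.03 in 6499c4 and 1.31 in 6419c5, so that the high values were those of the KO libraries with 12.5% and 9.69% of TPM in unnamed identifiers. The part of those identifiers in the result was not tested. Sqstm1, the autophagy receptor p62, was at 1763 TPM in the KO and 402 TPM in the WT library of 6694c2, an effect of 2.35 against 0.12 to 0.50 in the other lines. Ppp1r15a, the stress-induced phosphatase subunit GADD34, was at 193 and 37.5 TPM in the KO and WT libraries of 6694c2, an effect of 2.55 against 0.04 to 0.66.

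**Figure D5:**
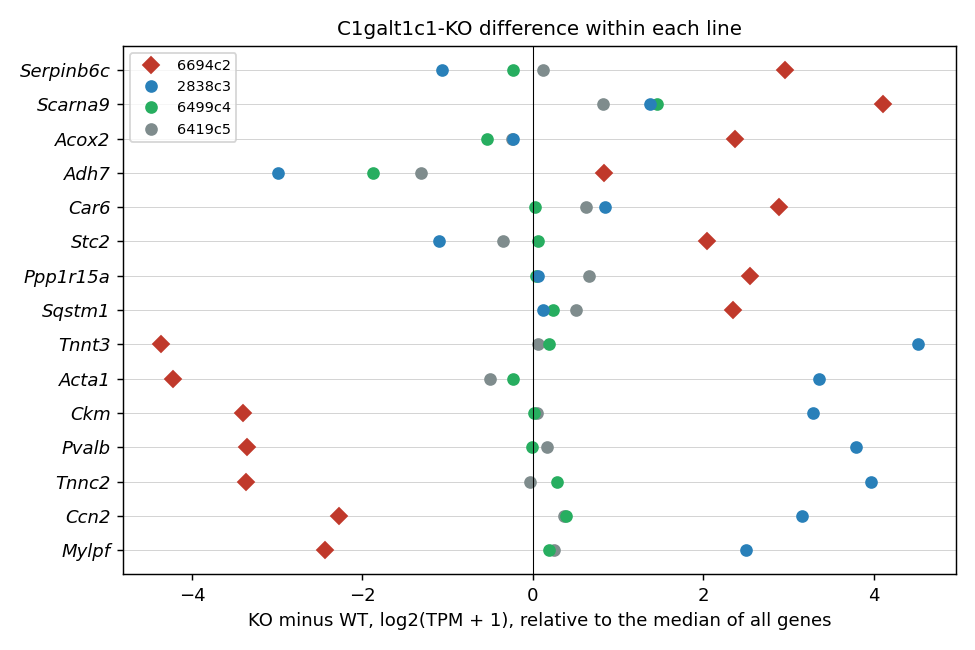
Difference KO minus WT in log2(TPM + 1), relative to the median of all genes, within each line, for genes in which 6694c2 (red diamonds) lies far beyond the other 3 lines, 8 of them higher and 7 lower in its KO library. Tnnt3, Acta1, Ckm, Pvalb, Tnnc2 and Mylpf lie on opposite sides in 6694c2 and 2838c3 and near 0 in 6499c4 and 6419c5.

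Among the genes lower in the KO library of 6694c2, skeletal muscle genes came first. Tnnt3, a fast muscle troponin, was listed at 0 TPM in the KO and at 22.96 TPM in the WT library of 6694c2, and at 24.2 TPM in the KO and 0.153 TPM in the WT library of 2838c3. Of 24 muscle genes, listed after some of these values had been seen, 20 were higher in the 6694c2 WT and 2838c3 KO libraries than in all of the other 6. Their sum was 192 TPM in the KO and 424 TPM in the WT library of 6694c2, 224 and 147 TPM in those of 2838c3, and between 135 and 279 TPM in the rest. Eno3, a glycolytic enzyme not limited to muscle, made up 50.5% of the sum in the 6694c2 WT and 21.7% in the 2838c3 KO library, against 86.3% to 93.8% in the remaining 6, and did not follow the pattern (177 and 214 TPM in the KO and WT libraries of 6694c2, and 48.5 and 134 TPM in those of 2838c3). None of the 24 was a marker of 6694c2, and their part in the other results was not tested. Ccn2, a matricellular gene and YAP target, shared this direction, at 29.8 TPM in the KO and 172 TPM in the WT library of 6694c2.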

How the data were processed

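The deposited table holds TPM, made by the authors, for 49315 gene identifiers in 8 libraries; the sources used here do not give how they were derived from counts. Per the labels' protocols, RNA was captured on oligo(dT) beads. The submitters' processing notes name cutadapt 5.1, STAR 2.7.11b, featureCounts 2.1.1, DESeq2 2.11.40.8 and mm39. GENCODE vM39 (GRCm39, the assembly of mm39) gave names to 45505 identifiers.

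limma 3.58.1 (R 4.3.3) was run with a variance trend on log2(TPM + 1), which understates the change of low genes, with Benjamini-Hochberg adjustment over 14268 genes. It was tested on simulated data. Fits were made for the line contrast (line and genotype as terms) and for the 4 within-line KO differences. The labels do not say that cultures were repeated, so p-values measure only the spread between these samples. A count test was not run, because TPM keep no depth.

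Members, the 35 gene lists and the rules were chosen with earlier results of these data known. Named genes are the 15 markers each way with the widest gap, up to 4 markers and 2 other called genes per list, the 8 KO genes each way farthest beyond the other lines, and genes at the thresholds; not all of them are reported here. Genes named as the rest of a count, Epcam, Esrp1, Gclc, Nqo1, Trp53, Smad4, Eno3, the muscle and NRF2 lists, the promoter motif and the setting without structural RNA were chosen after values were seen. Alternatives were a pseudocount of 0.1, other filters, scalings and marker thresholds, no trend, no genotype term, line means, 1 genotype alone, and each line or library of 6694c2 left out.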

Additional observations from a re-analysis of the deposited data

Results flagged for a closer look

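In several results the KO minus WT difference, relative to the median of all genes, had 1 sign in 6694c2 and the opposite sign in each of the other 3 lines. This difference between lines was not tested for the lists and passed no test for the genes. The genes were sought only among those chosen for lying farthest beyond the other 3 lines, a choice that favours opposite signs. How often such signs occur among all genes was not counted. The lists were sought among the 35, leaving out those with few genes tested. All values are log2, relative to the median of all genes. The median KO effect was 0.28 in 6694c2 for conjugation and antioxidant enzymes, against -0.81, -0.31 and -0.06 in 2838c3, 6499c4 and 6419c5. It was -0.26 in 6694c2 for mesenchymal genes, -0.14 for basal and squamous genes, -0.23 for mucins and -0.23 for matrix proteases and inhibitors, where the other 3 lines were above 0. Among single genes, the peroxisomal oxidase Acox2 had an effect of 2.37 and the alcohol dehydrogenase Adh7 of 0.83 in 6694c2, with values below 0 in the other lines. Ccn2 (-2.28) and the muscle genes Tnnt3 (-4.37), Ckm (-3.40) and Mylpf (-2.44) were below 0 in 6694c2 and above 0 in the other 3. For Tnnt3 and Ckm the sign in 6499c4 and 6419c5 rests on values of at most 0.0707 TPM. Before the median was taken off, Ckm was lower in the KO library of both lines, and Tnnt3 in that of 6419c5.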

How the results depend on the processing

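The line contrast called 1531 genes, and between 1334 and 1618 under another pseudocount, a TPM filter of 5, median-ratio or quantile scaling, no variance trend, no genotype term, or without structural RNA. With no filter on low values it called 596, and with line means, the WT libraries alone or the KO libraries alone 0. Leaving out 1 library of 6694c2 gave 225 to 302 calls, and leaving out 1 line 357 (6419c5), 485 (6499c4) or 3576 (2838c3). Gained and lost markers, 538 and 994, were 41 and 32 with at least 2-fold between the nearest TPM values. With median-ratio scaling there were 813 gained and 738 lost markers, of which 521 and 693 were among the 538 and 994, and with quantile normalization 800 and 787, so that the excess of lost over gained markers was not kept under either scaling. Leaving out a library of 6694c2 or a line gave 650 to 1451 gained and 1209 to 2461 lost markers, since fewer values then have to be passed. The KO effect of 6694c2 against the other lines called 0 genes in limma under each alternative run. Single genes changed sign as follows, each with its range over the left-out lines or libraries: Cldn18 (-3.06 to 0.49, above 0 without 6499c4), Mycl (-2.18 to 0.09, above 0 without 6499c4), Hoxa10 (-2.35 to 0.06), Xlr3a (-1.24 to 0.12) and Tnc (-2.36 to 0.12), the last 3 above 0 without 6419c5. Epha2 ran between -0.36 and 0.04, above 0 without the 6694c2 WT library and in the KO libraries alone, and Sst between -0.44 and 0.96, below 0 without the 6694c2 KO library and in the WT libraries alone. The cause was not tested. The KO and WT libraries were paired by line in both fits, and the labels give no replicate numbers shared between lines. A count test was not run.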
